A study of Homo sapiens with 3 samples.

Results

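The secreted chemokines and interleukins, the tumor necrosis factor TNF and the receptors that bind them were examined in BTSH cells, a clone picked from the HER2+ breast cancer line BT474 for its high sensitivity to trastuzumab. Members were taken by gene symbol alone, that is, every array feature annotated to a single gene whose symbol begins with CXCL, CCL, CXCR, CCR or IL and a digit, or with TNFSF or TNFRSF, or is TNF, LTA, LTB or LTBR. The pattern matched 118 features, of which 8 were left out because they belong to antisense genes (4), divergent transcripts (3) or a pseudogene (1). The 110 features that remained stand for 103 genes, out of 16098 named features and 14884 named genes on the array. They hold 0 TNFSF features, 0 TNFRSF features and 0 features of LTA, LTB or LTBR, and these genes were not analysed here. Of 53617 features in all, 16098 had a name in the annotation used. Family genes without a named feature, such as IL6, IL1A, IL1B, CXCL1, IL6ST, IL1R1 and IL20RA, were not analysed either.

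RNA of untreated BTSH cells, kept in DMEM with serum, was hybridized to HuGene 2.0 ST arrays in 3 replicates. The labels do not say whether the replicates were separate cultures, so their spread may be technical. BTSH is a single clone, and arrays of other cell lines were not analysed here, so every value below describes BTSH cells alone. The values are signals on a log2 scale from RMA, a procedure that corrects, normalizes and summarizes the probes of each feature. The background of an array was taken from 106 features of hair keratin-associated, cornified envelope and vomeronasal genes, which breast epithelium is not known to use. Its height was their 95th percentile, 6.70, 7.08 and 6.83 in replicates 1, 2 and 3, and a feature that passed it in each array was called above background. A signal below it does not show that a transcript was absent. Signals of different features also reflect their probes and are not scaled to transcript length, so a distance between 2 genes is a distance between signals and not a ratio of transcripts. An array signal is an average over all cells of a sample, so few cells rich in a transcript and many cells poor in it cannot be told apart.

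Cytokines are small secreted proteins through which cells signal to each other. Chemokines form the branch that guides migrating cells. They are sorted into CXC and CC ligands by the spacing of their first cysteines, and they act through receptors of the G protein-coupled type. Interleukins act through receptor chains that pair on the cell surface, and chains of the IL-17 receptor group are common on epithelia, where they receive signals from immune cells. Many genes of both branches are kept low in resting epithelium and are induced through NF-kappaB during inflammation. CXCL17 is known as a product of mucosal epithelium itself, where it attracts monocytes and related cells. Its gene lies on chromosome 19, whereas 9 of the 13 CXC ligand genes measured here lie on chromosome 4 and 13 of the 23 CC ligand genes on chromosome 17.

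The regions before the start sites of CXCL17, CXCR4 and the IL-17 receptor chains above background with a listed window are shown here because they differ plainly in their content of CG dinucleotides, which are set in capitals. No window was listed for IL17RA, and that of the enzyme IL4I1 (22 CG dinucleotides) is not shown. They are the 250 bases before the first listed start of each gene, from RefSeq on GRCh38.p14, written 5′ to 3′ on the strand of the gene. They lie at chr19:42442947-42443196 (minus strand) for CXCL17, chr3:53846318-53846567 (plus strand) for IL17RB, chr3:9902598-9902847 (plus strand) for IL17RE, chr3:9916848-9917097 (plus strand) for IL17RC and chr2:136118150-136118399 (minus strand) for CXCR4.
CXCL17: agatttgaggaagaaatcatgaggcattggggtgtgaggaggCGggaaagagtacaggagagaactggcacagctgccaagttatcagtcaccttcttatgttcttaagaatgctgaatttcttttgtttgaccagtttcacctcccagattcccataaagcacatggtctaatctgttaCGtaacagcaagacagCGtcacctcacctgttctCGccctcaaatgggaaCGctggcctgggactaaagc
IL17RB: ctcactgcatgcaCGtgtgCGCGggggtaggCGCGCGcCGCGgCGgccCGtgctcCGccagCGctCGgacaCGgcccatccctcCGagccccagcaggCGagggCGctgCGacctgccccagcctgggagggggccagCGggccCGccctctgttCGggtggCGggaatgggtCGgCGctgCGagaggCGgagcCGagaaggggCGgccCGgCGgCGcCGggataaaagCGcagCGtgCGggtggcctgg
IL17RE: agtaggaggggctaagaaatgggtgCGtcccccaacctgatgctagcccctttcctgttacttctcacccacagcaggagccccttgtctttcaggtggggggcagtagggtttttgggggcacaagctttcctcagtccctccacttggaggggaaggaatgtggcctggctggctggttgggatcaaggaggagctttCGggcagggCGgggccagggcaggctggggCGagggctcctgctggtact
IL17RC: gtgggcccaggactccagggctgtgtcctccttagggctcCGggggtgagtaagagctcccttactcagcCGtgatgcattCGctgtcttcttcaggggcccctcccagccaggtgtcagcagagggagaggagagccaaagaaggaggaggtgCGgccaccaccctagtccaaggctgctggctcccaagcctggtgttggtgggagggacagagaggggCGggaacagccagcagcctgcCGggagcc
CXCR4: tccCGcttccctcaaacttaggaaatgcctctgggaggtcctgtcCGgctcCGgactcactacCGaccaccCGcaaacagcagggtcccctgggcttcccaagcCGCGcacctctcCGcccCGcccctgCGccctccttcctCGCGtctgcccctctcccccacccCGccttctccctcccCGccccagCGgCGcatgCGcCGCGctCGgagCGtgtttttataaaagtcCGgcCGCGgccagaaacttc
The stretch before CXCL17 holds 5 CG dinucleotides, that before IL17RE 4 and that before IL17RC 6, against 35 before IL17RB and 24 before CXCR4. IL17RE and IL17RC are neighbours on chromosome 3, with 0 protein-coding genes between them.

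The family, as far as its features were named, gave low signals in BTSH cells. Of its 110 features, 7 (6.36%) were above background in all 3 arrays, 3 in 1 or 2 arrays and 100 in none, whereas 29.2% of all named features and 35.3% of named protein-coding features were above it in all 3. The 7 features stand for 7 of 103 genes (6.8%), against 30.4% of all named genes when each is represented by its highest feature. They are the chemokine CXCL17, the IL-17 receptor chains IL17RB, IL17RE, IL17RA and IL17RC, the chemokine receptor CXCR4 and IL4I1, a secreted amino acid oxidase. The median signal of the members was 4.15, 4.20 and 4.19 in replicates 1, 2 and 3, against 6.14, 6.12 and 6.11 for named protein-coding features. Of the members, 75 (68.2%) had a mean signal under 5, against 32.6% of protein-coding features, and 4 (3.64%) had a mean of 8 or more, against 21.7%. In all 3 arrays, 84 members lay below the median of the named features and 20 above it, among them 7 TNF features with the same values.

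**Figure D1:**
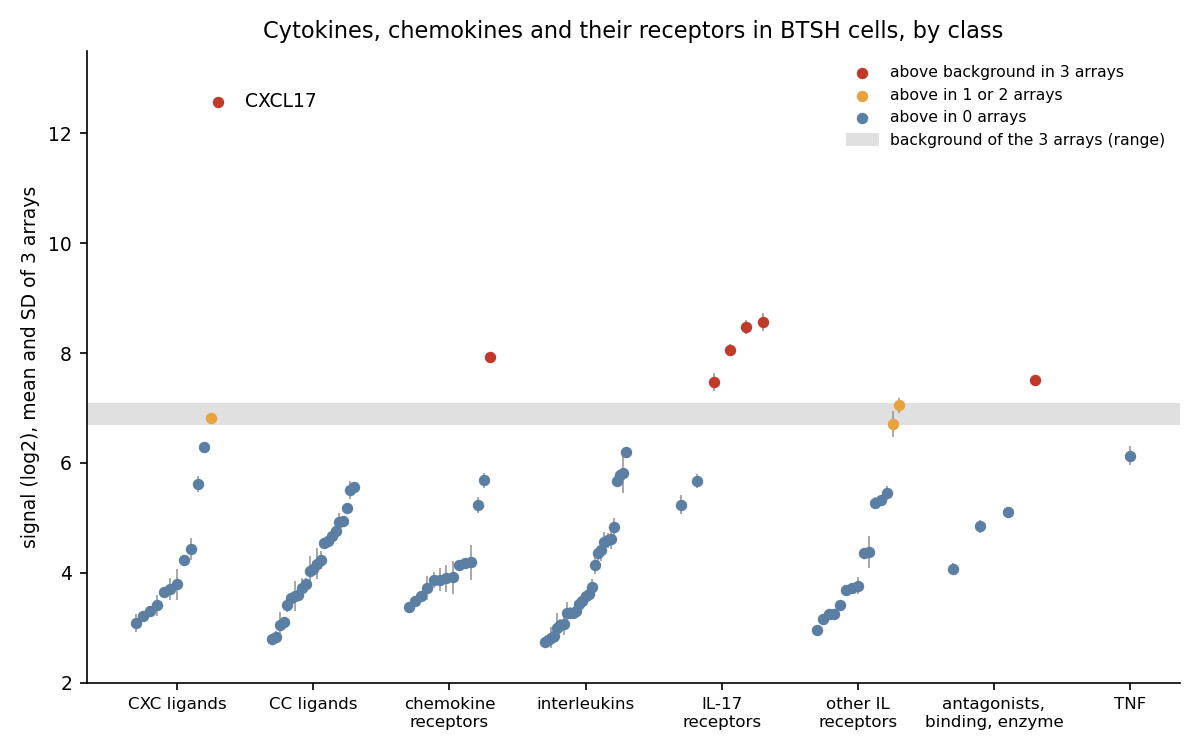
Mean log2 signal of each member gene over the 3 BTSH arrays (points, bars are SD), sorted by class, with the range of the background in the 3 arrays as a grey band. CXCL17 at 12.57 stands apart from all other members, and 4 of the 6 IL-17 receptor chains lie above the band.

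**Figure D2:**
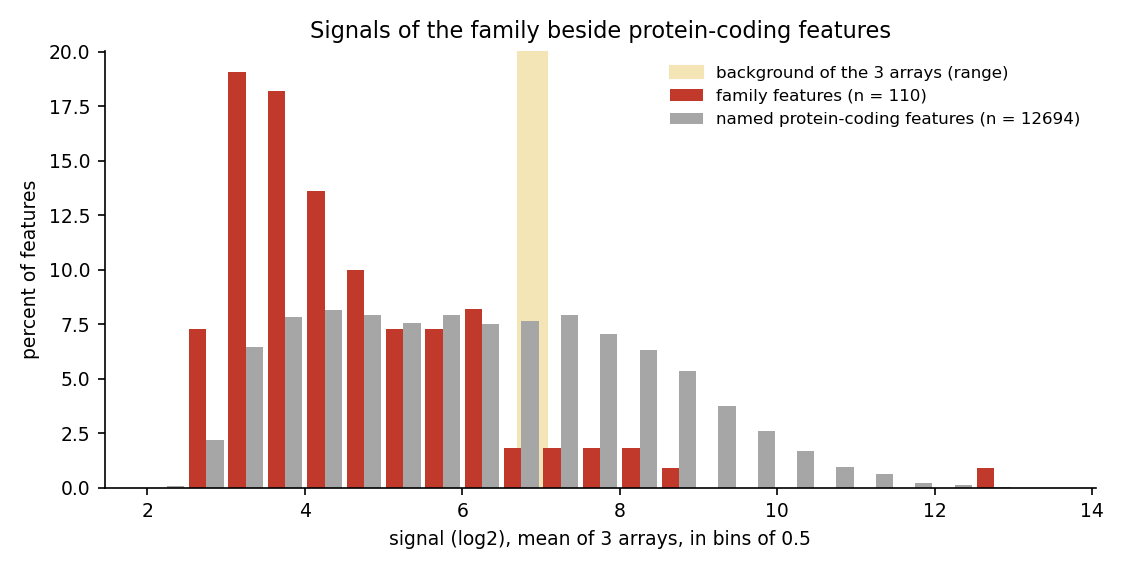
Percent of features in bins of mean log2 signal, for the 110 family features (red) and the 12694 named protein-coding features (grey), with the range of the background in yellow. Most members fall under 5, and CXCL17 forms the lone red bar at the right.

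CXCL17 had signals of 12.50, 12.68 and 12.54 in replicates 1, 2 and 3, or 12.57 ± 0.09 (SD, n = 3). The replicates were close to each other, with the highest 1.13-fold above the lowest. The signal lay 5.80, 5.60 and 5.71 above the background of the 3 arrays. It was higher than 99.95% of named features in replicate 1 and than 99.96% in replicates 2 and 3, and 7, 5 and 5 named features stood above it. SCD, IGFBP5, VMP1 and MALAT1 were above it in every array.

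CXCL17 was set against the rest of the family. Its signal exceeded that of the next highest member, IL17RB in every array, by 3.88, 3.98 and 4.16 in replicates 1, 2 and 3, or 4.01 ± 0.14 (SD, n = 3). All 3 arrays gave the same order. Among the CXC and CC ligands CXCL16 was next in every array, at a difference of 5.75 ± 0.07, and against the median of the other 109 members the difference was 8.40 ± 0.07 (SD, n = 3 each). Both are differences of array signals, and that median lay below background, where a signal gives only an upper bound. For a member below background in each array the difference can be read only as at least that from the background, 5.70 ± 0.10 (SD, n = 3). CX3CL1, a chemokine ligand outside the symbol rule, lay 4.65, 4.83 and 4.70 below CXCL17 in replicates 1, 2 and 3.

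Of the other 12 CXC ligands and the 23 CC ligands, 0 were above background in all 3 arrays, beside 29.2% of all named features. CXCL16, a chemokine that is made as a transmembrane protein, was closest, with 6.78, 6.84 and 6.84 in replicates 1, 2 and 3, above background in replicates 1 and 3 and below it in replicate 2, where the background was highest. CXCL12, the ligand of CXCR4, had 6.39, 6.24 and 6.22 and stayed below background in each array. CXCL2, a neutrophil attractant, had 5.52, 5.55 and 5.78. The remaining CXC ligands had means between 3.08 and 4.44. Among them were CXCL8, the main neutrophil attractant of inflamed epithelium (3.22 ± 0.07, SD, n = 3), the interferon-induced CXCL10 (3.70 ± 0.20) and CXCL14, a ligand found in normal epithelia (4.23 ± 0.10).

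The CC ligands had means between 2.80 and 5.56, with a median of 4.08 and all 23 below background in every array. CCL3L1, a ligand of inflammatory cells, had 5.57, 5.51 and 5.59, and CCL3 had 4.58, 4.60 and 4.56. These genes are near-identical copies whose probes may bind the RNA of both, so their difference is uncertain. CCL28, a mucosal chemokine also known from mammary gland, had 3.89, 3.83 and 3.66, low in every array. The class includes CCL15-CCL14, a readthrough transcript of neighbouring genes, at 2.80 ± 0.09 (SD, n = 3).

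Several of the chemokine genes below background carry a kappaB sequence, the motif that NF-kappaB binds, close to their start. The stretches before CXCL2 and CXCL10 are shown because both genes are classic NF-kappaB targets and neither was above background here. They lie at chr4:74099196-74099445 and chr4:76023498-76023747, both on the minus strand (GRCh38.p14, from RefSeq), and the kappaB matches on either strand are in capitals.
CXCL2: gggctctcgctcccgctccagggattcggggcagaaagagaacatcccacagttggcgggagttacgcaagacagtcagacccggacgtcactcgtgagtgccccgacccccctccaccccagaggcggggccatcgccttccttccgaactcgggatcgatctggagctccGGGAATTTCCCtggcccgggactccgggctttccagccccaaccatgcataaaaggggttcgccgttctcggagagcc
CXCL10: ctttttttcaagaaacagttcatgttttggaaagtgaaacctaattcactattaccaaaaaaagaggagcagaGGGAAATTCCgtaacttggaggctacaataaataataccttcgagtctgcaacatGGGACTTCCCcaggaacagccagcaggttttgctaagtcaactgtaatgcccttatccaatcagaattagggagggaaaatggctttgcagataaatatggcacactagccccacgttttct
CXCL2 has overlapping matches on both strands, 77 and 78 bases before the start, and CXCL10 has 2 separate matches, 122 and 177 bases before it. Among chemokine ligands with a listed promoter, 8 of 26 (30.8%) hold the motif, namely 6 of 12 CXC ligands and 2 of 14 CC ligands. Each gene was read at its first listed start. So read, 5.05% of all 27305 genes with a window hold it. CXCL17 holds no such match in its window. A match describes the letters only.

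Among the 14 chemokine receptors, CXCR4 alone was above background, beside 29.2% of all named features. CXCR4, the receptor of CXCL12 with a known role in the spread of breast cancer cells, had 7.88, 7.96 and 7.95 in replicates 1, 2 and 3 (7.93 ± 0.04, SD, n = 3). The replicates were nearly equal, and each lay above the background of its array. The other 13 receptors had means of 3.38 to 5.68, the highest being CCR7, the receptor that guides cells to lymph nodes, with 5.61, 5.84 and 5.60. CXCR6, the receptor of CXCL16, had 4.24, 3.86 and 4.49. CXCR1 and CXCR2, the receptors of CXCL8, had 3.38 ± 0.06 and 3.92 ± 0.30 (SD, n = 3 each).

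Of the 6 named IL-17 receptor chains, 4 passed the background in every array, against 0 of the 15 other named interleukin receptor chains. Of all named features 29.2% did. IL17RB, the chain that binds IL-25 and IL-17B, had 8.62, 8.70 and 8.38 in replicates 1, 2 and 3. IL17RE, the chain for IL-17C, had 8.50, 8.59 and 8.35. Both peaked in replicate 2 with replicate 3 lowest, with means of 8.57 ± 0.17 and 8.48 ± 0.12 (SD, n = 3 each). IL17RB gave a slightly higher signal than IL17RE in each array, though signals of different features also reflect their probes. IL17RA, the chain that the other receptors share, had 7.93, 8.10 and 8.14 (8.06 ± 0.11, SD, n = 3). IL17RC, which joins IL17RA to receive IL-17A and IL-17F, had 7.31, 7.49 and 7.64 (7.48 ± 0.17). These chains were lowest in replicate 1 and highest in replicate 3. IL17RD, a chain also known as a brake on growth factor signalling, had 5.41, 5.24 and 5.06, and IL17REL had 5.65, 5.81 and 5.56, and both stayed below background in all arrays.

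**Figure D3:**
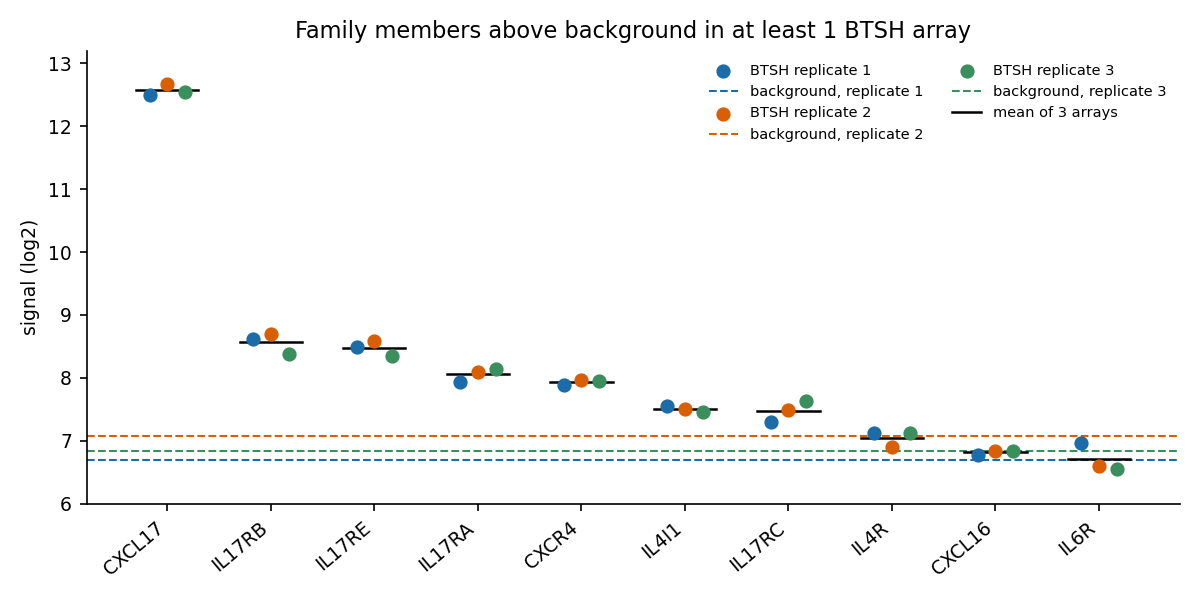
Log2 signal of the 10 members above background in at least 1 array, with a point for each BTSH replicate, a black line for the mean and a dashed line for the background of each array. Apart from IL4R, CXCL16 and IL6R, all points of a gene lie above the 3 dashed lines.

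The other interleukin receptor chains were lower. IL4R, which receives IL-4 and IL-13, had 7.13, 6.89 and 7.12 in replicates 1, 2 and 3 and was above background in replicates 1 and 3. IL6R, the binding chain for IL-6, had 6.97, 6.60 and 6.56 and was above background in replicate 1 only. Genes of hypoxia and glycolysis, listed with earlier results known, were also highest in that replicate, for 8 of the 8 that passed the background, by 0.49 on average over the mean of the other replicates. Of all 4703 named features above background, 2217 were highest in replicate 1 as well. The part of the hypoxia and glycolysis genes in the signal of IL6R was not tested. The remaining 13 chains were below background in every array, from 2.95 for IL23R to 5.45 for IL20RB as means. They include IL7R, a receptor of lymphocytes (3.16 ± 0.09), and IL1RL1, the receptor of IL-33 (3.68 ± 0.06, SD, n = 3 each).

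All 27 interleukin genes with a named feature were below background in every array, with means of 2.73 to 6.20 and a median of 3.59. Of all named features, 29.2% were above it in all 3 arrays. IL17C, an IL-17 made by epithelia, was highest with 6.19, 6.23 and 6.17. IL11, a cytokine of the IL-6 family, had 5.41, 5.93 and 6.10, and the lowest mean was that of the T cell growth factor IL2. IL33, an alarm signal of damaged epithelium, had 2.67, 3.03 and 2.75. TNF is represented by 8 features, of which 7 hold the same values (5.95, 6.15 and 6.29) and the other has 5.16, 5.30 and 5.49, all below background. The antagonists and binding protein IL1RN, IL36RN and IL18BP had means of 4.08 to 5.11. IL4I1, which breaks down aromatic amino acids and is not a cytokine, had 7.55, 7.51 and 7.46 and was above background in each array.

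Receptors and their known ligands were then read side by side, in 27 pairs that were written down after these values had been seen. Both partners were above background in 0 pairs, the receptor alone in 8 pairs, the ligand alone in 0 and neither in 19. Both counts of 0 follow from the calls given above and add nothing to them. No interleukin and no CXC or CC ligand other than CXCL17 had passed in all 3 arrays. The 0 for both partners also depends on the background. With its 90th percentile or the median of all named features in its place, both partners passed in 2 pairs. These were CXCR4 with CXCL12 and IL17RE with IL17C. The 8 pairs rest on 5 receptors, CXCR4, IL17RA, IL17RB, IL17RC and IL17RE. Their ligands IL17A, IL17F, IL25, IL17B, IL17C and CXCL12 had means of 3.43, 3.28, 4.41, 4.84, 6.20 and 6.28. CXCL17 was left out of the pairs because its receptor is disputed. GPR35, once proposed for it, had 4.48, 4.67 and 4.74, below background in every array.

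Lists of signalling genes were read as well, including those of TNF, Toll and death receptors, which were not analysed here. These lists had higher shares of calls than the family. Each gene was represented by its highest feature. Of all named genes 30.4% were called, and of named protein-coding features 35.3%. The lists are short, and the share of the IL-1 and Toll adaptors lay near these shares. Of 19 named genes of NF-kappaB and the TNF receptor adaptors, 12 were above background in all 3 arrays. Among them were the NF-kappaB subunit RELA (9.31 ± 0.14, SD, n = 3), the kinase MAP3K7 (9.81 ± 0.15) and NFKB1 (7.60 ± 0.05). Another 5 passed in no array (NFKB2, RELB, TRAF1, MAP3K14 and TNIP1). Of 16 JAK-STAT genes 7 were above background in all 3 arrays, including STAT3 (10.28 ± 0.05), which carries the IL-6 signal, and the kinase JAK1 (9.52 ± 0.04). A further 8 passed in no array, among them JAK2 (3.42), STAT5A (4.85), STAT5B (6.23) and JAK3, the kinase of lymphoid cytokine receptors (4.10). Of 9 adaptors of IL-1 and Toll receptors 3 were above background in all 3 arrays (IRAK1, ECSIT and PELI1). Of 4 named genes of the death receptor pathway 2 were (FADD and BID). Of 2 named genes listed for the IL-17 pathway, ZC3H12A, an RNase that degrades cytokine mRNAs, was (7.46 ± 0.10), while TRAF3IP1, which is known as a cilium gene, passed in 1 array. Of 7 named TNF superfamily genes that carry other symbols, 0 were above background in all 3 arrays.

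Of 18 named relatives of the chemokines outside the symbol rule, 3 were above background in all 3 arrays, beside 30.4% of all named genes. CX3CL1, a chemokine anchored in the membrane of epithelial cells, had 7.85, 7.85 and 7.84 in replicates 1, 2 and 3, while its receptor CX3CR1 had 4.09, 4.23 and 4.07. The others were CMTM4 (9.57 ± 0.08) and CMTM8 (8.09 ± 0.05, SD, n = 3 each), membrane proteins named for a likeness to chemokines.

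The identity of the cells was checked with marker lists. Of 14 named markers of luminal breast epithelium 11 were above background in all 3 arrays, such as EPCAM and KRT19, beside 30.4% of all named genes. TFF3 and AGR2 passed in 2 arrays. The luminal keratin KRT8 passed in none, with 6.38, 6.00 and 6.44 in replicates 1, 2 and 3. All 6 named neighbours of HER2 were above background in all 3 arrays. Of 10 named markers of immune cells 0 were, with means of 3.26 to 7.25. The highest was CD68, a lysosomal protein abundant in macrophages and present in other cells, which passed in replicates 1 and 3 (7.70, 7.03 and 7.01). Of 7 named markers of fibroblasts and endothelium 0 were, with means of 3.08 to 5.83. Any pair of arrays shared at most 83 identical values, so no array was a copy of another.

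The members varied between the 3 replicates about as much as all named features did. As 100 of the 110 passed the background in no array, this is mostly a spread of signals below background. The median SD of the 110 features was 0.13, against 0.12 for all named features. Between any replicates 0 members were 2-fold or more apart, against 0.248% of all named features, a share so small that this count says little. The largest SDs were those of IL11 (0.36), CXCR6 (0.32), CXCR2 (0.30), IL1RAPL2 (0.29) and CCL23 (0.28), all below background in every array. Replicate 2 gave the highest signal for 4 of the 7 members that passed the background and the lowest for 0, with mean deviations of -0.07, 0.09 and -0.03 in replicates 1, 2 and 3 from the mean of the other arrays. With the background at the 90th percentile, which admits 23 features with TNF counted 7 times, they were -0.11, 0.02 and 0.09, so that replicate 3 changed sign and was the highest. At the 95th percentile, over all 4703 named features above background, the deviations were 0.05, 0.00 and -0.05. Replicate 2 was the highest array for 1167 of these features and the lowest for 1216. Of 6 immediate early genes above background, 5 peaked in replicate 2, where the 6 deviated by 0.33 on average, and their part in the values of the members was not tested.

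**Figure D4:**
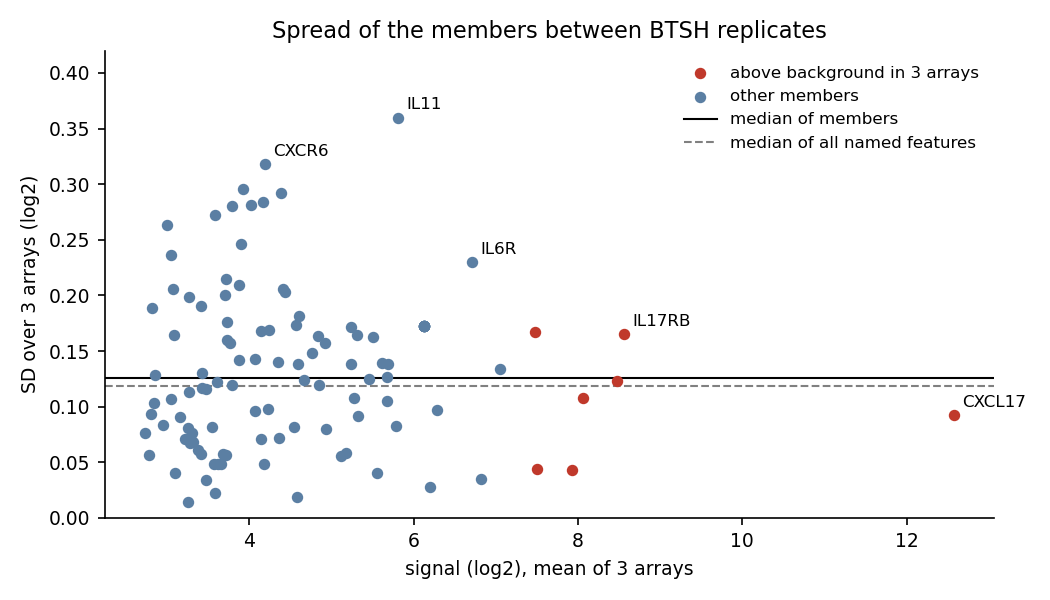
SD over the 3 BTSH arrays against mean log2 signal for the 110 members, with those above background in red and the medians of the members and of all named features as lines. CXCL17 lies below both lines at the far right, and the largest SDs belong to members of low signal.

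A promoter window was listed for 78 of the 103 member genes, among them 6 of the 7 above background. Those 6 held a median of 14 CG dinucleotides in the 250 bases (range 4 to 35), against 3 in the other 72 members (range 0 to 35). Over the first windows of all genes the median was 11. No gene lay near 14, since IL17RB, CXCR4 and IL4I1 held 35, 24 and 22 and IL17RC, CXCL17 and IL17RE held 6, 5 and 4. CXCL17 with 5 lay near the other chemokine ligands, whose median was 3. The letters of the TATA box (TATAAA) were found on either strand in 11 of 26 chemokine ligand windows (42.3%) and 2 of 29 receptor windows (6.9%). Of all windows 10.7% held them, and CXCL17 had no match. Position and strand were not considered, so a match need not be a working TATA box. The GC box (GGGCGG) was found in 13 of 29 receptor windows (44.8%) and 6 of 26 chemokine ligand windows (23.1%), against 42.6% of all. Of the members, 28 of 78 held CCAAT (35.9%, all windows 32.0%), 14 held the GATA motif AGATAA (17.9%, all windows 9.17%) and 1 held the forkhead motif TGTTTAC (1.28%, all windows 2.98%), and CXCL17 held neither of the last. The windows also differed in base composition. Their median GC content was 48.6% for chemokine ligands, 52.4% for receptors and 58.0% for all windows. The part of base composition in the motif shares was not tested. Where a gene had several listed starts (28 genes), only the first was read, and neighbouring gene copies share sequence, so these shares are a description.

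**Figure D5:**
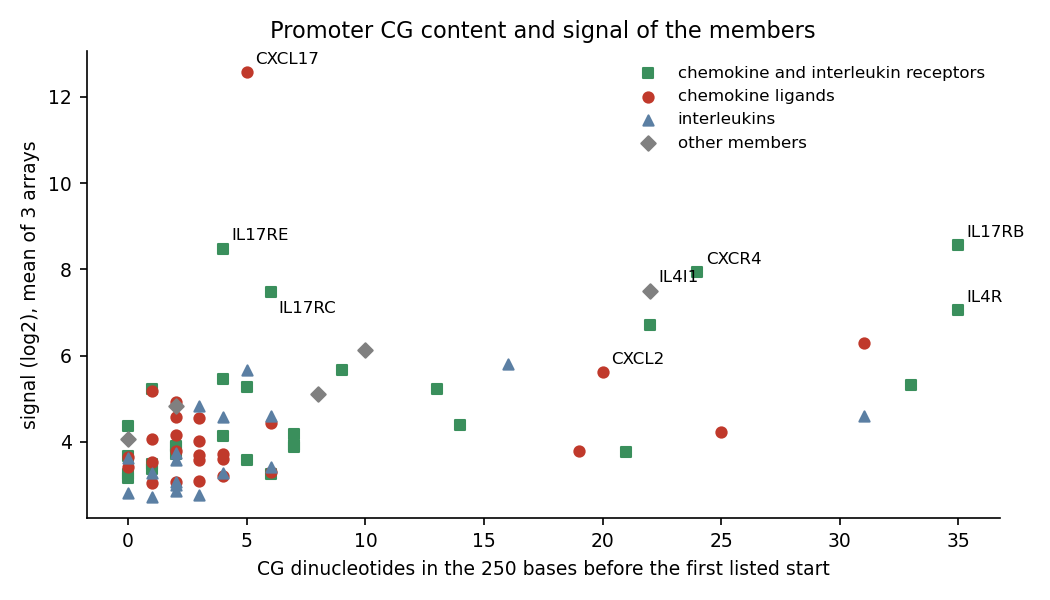
Mean log2 signal against the number of CG dinucleotides in the 250 bases before the first listed start, for the 78 members with a listed window, by role. CXCL17 combines 5 CG dinucleotides with the highest signal, while IL17RB and IL4R hold 35 each.

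The calls depend on the height of the background. At the 99th percentile 5 members were above it, without IL17RC and IL4I1, beside 21.1% of all named features. At the 90th percentile 23 features were, with all 7 genes kept and 10 genes added, CXCL12, CXCL16, CXCL2, IL11, IL17C, IL17D, IL27, IL4R, IL6R and TNF. Without replicate 2, whose background was highest, CXCL16 and IL4R passed as well, beside 31.8% of all named features.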

How the data were processed

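RNA of untreated BTSH cells was measured on 3 HuGene 2.0 ST arrays. The authors normalized the scans by RMA with Expression Console 1.4 and deposited 1 log2 value per feature and array. Transcriptome Analysis Console 4.0 is listed in the submitters' processing notes as well. Whether other arrays were normalized with these, and the genome build of the features, are not given in the sources used here. Values were used as deposited. Features were named through the platform annotation (1 symbol each), and symbols were checked through gene identifiers against RefSeq genes of GRCh38.p14, which changed 0 member symbols. Precision is limited by having only 3 arrays.

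Each level is given as mean ± SD across arrays. The background, the 95th percentile of 106 features, was set per array, and for gene lists the feature with the highest mean stood for a gene. The calls and deviations were tested on simulated data, with features set well above or well below the background. At such distances the calls had little room to fail. That test does not cover members close to the background, such as CXCL16, IL4R, IL17RC and IL4I1. With 1 group no test between groups was possible, and no p-value is given. The members and lists were chosen with earlier results of these data known. The genes named are CXCL17, the members above background in any array, those with the largest SD, and examples of each class chosen after their values were seen, several of them outside the planned rule. Motifs and ligand pairs were also chosen after the values were seen. Alternatives were other backgrounds, quantile normalization, median centring, other treatments of several features, updated symbols and leaving out each replicate. Divergent transcripts were left out with antisense genes, and including them was added after seeing the data, as were other backgrounds for the pairs. Scripts ran in Python 3.11.15 with numpy 2.4.6, pandas 2.3.3 and, for the plots, matplotlib 3.10.9.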

Additional observations from a re-analysis of the deposited data

How the results depend on the processing

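With background at the 90th percentile 23 member features were above it, beside 49.1% of all named features, and with the median of all named features as background 20 were, beside 47.8%. Both counts hold TNF 7 times. A lower background admits more features. At the 99th percentile 5 members passed and with the mean over the arrays 8, and quantile normalization, median centring, gene-level features, updated symbols and the inclusion of divergent transcripts each left the same 7 genes. Leaving out 1 replicate gave 7 to 9 members above background, beside 29.2% to 31.8% of all named features, a difference of CXCL17 from the next highest member of 3.93 to 4.07, a difference from the median of the other members of 8.36 to 8.42 and a median SD of 0.0991 to 0.111. Averaging the features of a gene, which counts TNF once, gave a difference from the median of 8.49 and a percentile of 99.97 for CXCL17. Over all results and settings, 117 values stayed within the spread between replicates (counts within 1.5 times) and 8 moved further. The 117 are no measure of robustness, because many could not move. Leaving out 1 replicate shifts a mean over the arrays by less than its SD. Median centring leaves those means and the calls unchanged. The mean deviation of the members above background in replicate 3 changed sign, from -0.03 to 0.09, with the 90th percentile as background. It was still counted among the 117. Members below background have only an upper bound, so the differences from the median are differences of signals and bound nothing beyond the distance of CXCL17 from the background. Pairs with both partners above background, a count whose alternatives were added after seeing the data, numbered 2 at the 90th percentile and with the median of all named features. No paired analysis was possible because only 1 group was measured.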

Other observations

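Of 16 named cytokine and cytokine receptor genes outside the symbol rule, 2 were above background in all 3 BTSH arrays, beside 30.4% of all named genes. MDK, which encodes the heparin-binding growth factor midkine, gave 11.93, 11.99 and 12.03 in the 3 replicates, and MIF, the macrophage migration inhibitory factor, had 10.15, 10.35 and 10.53. The interferon gamma receptor chain IFNGR2 (6.92, 6.82 and 6.72) passed in replicate 1 alone, and the other 13 genes passed in no array. Of the RNAs left out of the family, 0 of 8 were above background, the highest being a feature of TNFRSF10A-DT, the divergent transcript beside a death receptor gene, with 5.96, 6.19 and 6.26.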
